A study of Mus musculus with 5 samples.

Results

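The Wnt10b and Wnt1 window is a stretch of mouse chromosome 15, from 98580000 to 98650000 of genome build mm9, in which peaks of ubiquitinated histone H2A (H2AK119Ub) were compared among 4 peak lists from chromatin immunoprecipitation and sequencing. A peak belonged to the window when it overlapped it by at least 1 bp, and 6 of the 5132 listed peaks did. Lineage-negative bone marrow progenitors of C57BL/6 mice were cultured after transduction with MLL-AF9, PML-RARa or HOXA9, or without transduction (NT), with 1 library per group. MLL-AF9 and PML-RARa are fusion oncogenes of acute myeloid and promyelocytic leukaemia, and HOXA9 is a homeobox transcription factor. All 4 groups had the genotype R26CreERT2;Ring1a-/-;Ring1bf/f;Cdkn2a-/-. They thus lacked Ring1a and the tumour suppressor locus Cdkn2a in every cell, and carried a Cre recombinase that is inducible by tamoxifen and driven from the broadly active Rosa26 locus, together with floxed Ring1b. Whether Cre had been induced, how many mice were pooled and how many clones each culture held are not given in the labels. No library of cells that received an empty vector was described, so transduction and oncogene cannot be told apart. The window was chosen by position but with knowledge of its deposited scores and covered lengths in these same lists, so those values are a description, and with 1 library per group no test between groups was possible.

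H2AK119Ub is laid down by Polycomb repressive complex 1, whose catalytic subunits are the ubiquitin ligases RING1A and RING1B, and it marks silent or poised developmental genes, often over broad domains around CpG-rich promoters. Wnt1 and Wnt10b are neighbouring genes for secreted ligands that bind Frizzled and LRP receptors and stabilise beta-catenin. Wnt1 was found as a site of integration of mouse mammary tumour virus and is required for development of the midbrain and cerebellum. Wnt10b promotes bone formation, restrains fat cell formation and has been linked to haematopoietic progenitors and T cells.

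In RefSeq's GRCm38.p6 gene table the neighbours on the Wnt10b side were, going outwards, LOC115488470, Arf3 (a Golgi GTPase), Fkbp11 (a prolyl isomerase), Ccdc65 (a protein of motile cilia) and Gm34152. On the Wnt1 side they were Ddn (dendrin of podocytes and neurons), B130046B21Rik, Prkag1 (a regulatory subunit of AMP-activated kinase), Kmt2d (a histone H3 lysine 4 methyltransferase) and Rhebl1 (a small GTPase). Wnt10b lies on the minus strand and Wnt1 on the plus strand, with no gene of that table between them. Their transcription starts therefore face each other across the space between the genes. Both promoters are shown because the peaks described below lie around the positions of these genes, and because Polycomb complexes are recruited to CpG-rich DNA. They run 5′ to 3′ on the gene's own strand, from 250 bases before to 50 bases after the start, with every CG dinucleotide in capitals. They come from RefSeq, build GRCm38.p6, at chr15:98778101-98778400 on the minus strand for Wnt10b and chr15:98789607-98789906 on the plus strand for Wnt1. These positions are on another scale than the mm9 positions of the peaks and were not converted.
Wnt10b promoter: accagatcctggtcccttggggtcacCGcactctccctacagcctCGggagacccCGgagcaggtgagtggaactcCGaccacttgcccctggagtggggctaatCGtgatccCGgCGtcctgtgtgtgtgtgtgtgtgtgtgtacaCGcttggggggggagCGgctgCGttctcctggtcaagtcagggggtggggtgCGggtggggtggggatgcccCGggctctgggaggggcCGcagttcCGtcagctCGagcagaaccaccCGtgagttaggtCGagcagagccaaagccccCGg
Wnt1 promoter: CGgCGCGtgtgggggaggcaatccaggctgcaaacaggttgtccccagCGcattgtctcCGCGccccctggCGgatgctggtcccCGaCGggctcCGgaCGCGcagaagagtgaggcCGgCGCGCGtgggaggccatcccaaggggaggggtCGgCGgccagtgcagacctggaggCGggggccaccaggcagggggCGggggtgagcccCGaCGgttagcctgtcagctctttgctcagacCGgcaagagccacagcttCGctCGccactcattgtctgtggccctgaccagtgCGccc

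The motif CG, which reads the same on both strands, occurred 18 times in the Wnt10b promoter and 26 times in the Wnt1 promoter. Among 32841 RefSeq promoter windows of the same length the median was 7, and 94.6% held at least 1. At least 18 were found in 29.7% of these windows and at least 26 in 16.9%. Both promoters were thus in the CG-rich part of the distribution without being extreme. The GC content was 66.3% for Wnt10b and 70.7% for Wnt1, against a median of 52.7% over all windows. The ratio of observed to expected CG was 0.559 for Wnt10b and 0.699 for Wnt1, against a median of 0.384. In Wnt1 16 of the 26 CG dinucleotides lay in the first 150 bases, farther from the start, whereas in Wnt10b 8 of 18 did. The 8 neighbouring genes with a promoter in the table held from 2 to 39, the highest in an Arf3 promoter and the lowest at Gm34152, so CG-rich starts were not particular to the Wnt genes here.

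**Figure D1:**
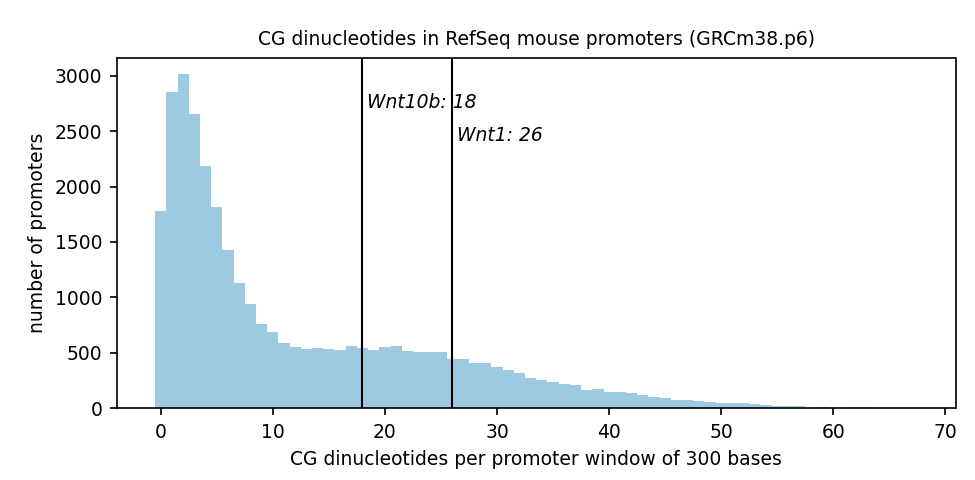
Number of RefSeq mouse promoters (vertical axis) by their number of CG dinucleotides per window of 300 bases (horizontal axis), with vertical lines at Wnt10b (18) and Wnt1 (26). Both lie to the right of the main hump of CG-poor promoters, whose median over all windows is 7.

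The libraries differed in how much of the window was covered. Listed peaks covered 11.1 kb in MLL-AF9, 36.5 kb in HOXA9 and 54.7 kb in PML-RARa, against 43.7 kb in NT cells. The PML-RARa peak was a single domain over both gene positions, the HOXA9 and NT lists had 2 peaks each, and the MLL-AF9 list had a single short peak in the middle of the window. The covered length was 0.254 of the NT length in MLL-AF9, 0.835 of it in HOXA9 and 1.25 times it in PML-RARa. When only the best-scoring 75% or 50% of peaks were kept, the HOXA9 value was 0.216, below that of MLL-AF9, and the other values did not change. Over the whole genome listed peaks covered 27.0 Mb in MLL-AF9, 13.4 Mb in HOXA9 and 35.7 Mb in PML-RARa, against 31.4 Mb in NT cells. The window values were not scaled to these totals. Sequencing depth is not known for any library, and in bulk chromatin fewer cells with the mark and less mark per cell cannot be told apart.

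The HOXA9 list held a peak of 9.46 kb at 98603656 to 98613111 and one of 27.1 kb at 98614479 to 98641536. In PML-RARa the only peak measured 54.7 kb, from 98587466 to 98642154, and it contained the whole extent of every other peak of the window. In MLL-AF9 the only listed peak measured 11.1 kb, from 98604140 to 98615251. These stretches differed mainly in how far they reached outwards. The NT list held a peak of 19.4 kb at 98594249 to 98613661 and one of 24.3 kb at 98617207 to 98641525. No peak of any list crossed either border of the window: the outermost ends were those of the PML-RARa peak.

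**Figure D2:**
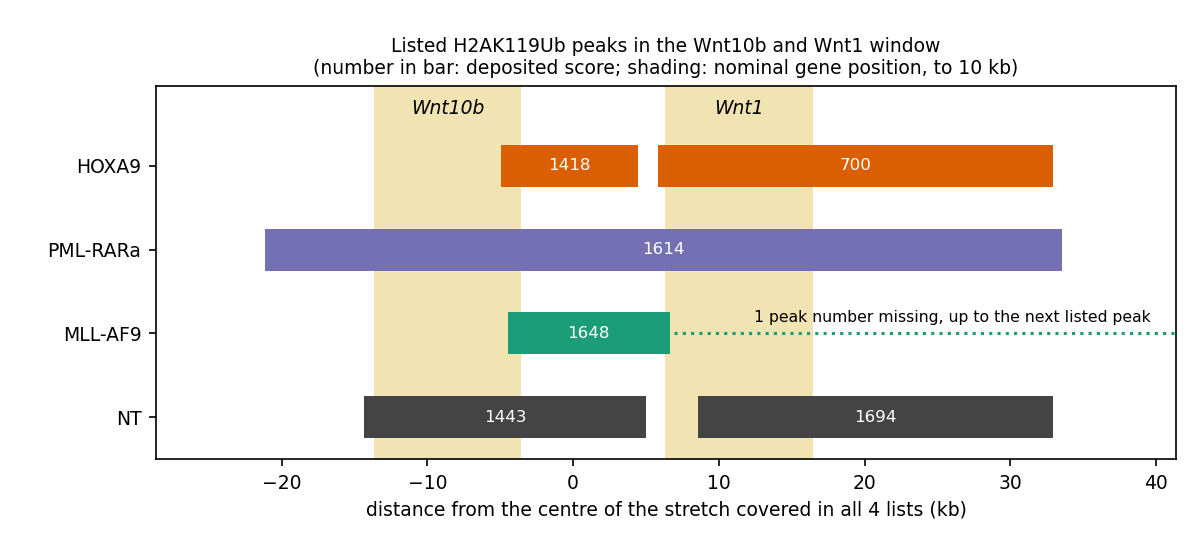
Listed peaks in the window, one row per library, against the distance in kb from the centre of the stretch covered in all 4 lists; numbers in the bars are deposited scores and the shading marks the approximate position of each gene, to 10 kb. All 4 lists cover the middle, from -4.49 to 4.49 kb, whereas MLL-AF9 has no listed peak beyond 6.63 kb.

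A stretch of 8.97 kb, from 98604140 to 98613111, was covered in all 4 lists. It began at the left end of the MLL-AF9 peak and ended at the right end of the first HOXA9 peak. A further 26.1 kb was covered in 3 lists, 12.2 kb in 2 and 7.40 kb in PML-RARa alone. By far the longest part covered in 3 lists was the 24.3 kb from 98617207 to 98641525, which MLL-AF9 lacked.

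The gene positions used to choose the window are approximate, with Wnt10b near 98.60 Mb and Wnt1 near 98.62 Mb, and each is good to about 10 kb; an mm9 annotation was not used here. The position of Wnt10b was inside the PML-RARa peak and the first NT peak. The first HOXA9 peak began 3.66 kb to its right and the MLL-AF9 peak 4.14 kb to its right. The position of Wnt1 was inside the second HOXA9 peak, the PML-RARa peak and the second NT peak, and 4.75 kb beyond the right end of the MLL-AF9 peak.

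These distances are shorter than the precision of the positions for HOXA9 and MLL-AF9, so a gene cannot be called covered or free of the mark from them alone. They also refer to approximate positions and not to transcription starts. In build GRCm38.p6 the promoter windows of the genes lie closer together than these positions do. The Wnt10b start may therefore lie inside the HOXA9 and MLL-AF9 peaks, or the Wnt1 start inside the MLL-AF9 peak. Which of the positions is off is not known. Of the 10 kb around the Wnt10b position, 0.861 kb was covered in MLL-AF9, 1.35 kb in HOXA9 and all 10 kb in PML-RARa, against all 10 kb in NT cells. Of the 10 kb around the Wnt1 position, 0.251 kb was covered in MLL-AF9 and all 10 kb in HOXA9 and PML-RARa, against 7.79 kb in NT cells.

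To the left of the stretch common to all lists, on the Wnt10b side, listed peaks covered nothing in MLL-AF9, 0.484 kb in HOXA9 and 16.7 kb in PML-RARa, against 9.89 kb in NT cells. The HOXA9 and MLL-AF9 left ends lay 484 bp apart, and both were inside the NT left end, by 9.89 kb for MLL-AF9 and 9.41 kb for HOXA9. PML-RARa reached 6.78 kb farther out than NT. In 29.4% of the 309 merged regions that had a peak in all 4 lists, the HOXA9 and MLL-AF9 left ends were at least as close as here, so this closeness was common.

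To the right of the common stretch, on the Wnt1 side, listed peaks covered 2.14 kb in MLL-AF9, 27.1 kb in HOXA9 and 29.0 kb in PML-RARa, against 24.9 kb in NT cells. On this side HOXA9, PML-RARa and NT were close and MLL-AF9 was short. The outer right ends of HOXA9 and NT lay 11 bp apart, and that of PML-RARa lay 618 bp beyond HOXA9 and 629 bp beyond NT. The HOXA9 and NT right ends were as close as this in 6 of the 309 regions (1.94%), this one included, and the median distance over the 309 was 2.20 kb. Here the HOXA9 right end was that of a peak with a score of 700, the lowest of its list. The MLL-AF9 peak ended 26.3 kb before the NT right end.

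Each peak name carries a number, and every list lacked some numbers. The numbers ran in order along the chromosomes, and no listed score was below 700. Why numbers are missing is not stated; calls left out of the deposited list are one reading, and peaks joined after numbering would look the same. From the last listed peak left of the window to the first one right of it, no number was missing in HOXA9 (308 to 311), PML-RARa (711 to 713) or NT (560 to 563). The MLL-AF9 numbers there were 567, 568 and 570, so 1 number was missing, and it fell in the 108 kb between the end of the MLL-AF9 peak at 98615251 and the next listed peak at 98722917. If that number belonged to an unlisted call, the call may have lain over Wnt1 or anywhere else in those 108 kb. On the Wnt10b side no MLL-AF9 or HOXA9 number was absent beside the outer left part that NT and PML-RARa covered. Numbers were missing in 21.0% of the spaces between consecutive MLL-AF9 peaks, so such a gap was not rare.

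The scores differed strongly between the 2 HOXA9 peaks. The first had a score of 1418, which ranked 8 among 620, and the second had a score of 700, the lowest of the whole list and shared with no other peak. The second peak was nevertheless wide: 155 of the 620 HOXA9 peaks were at least as wide, with a median score of 925, and the lowest score among the others was 709. Coverage of the Wnt1 side in HOXA9 cells therefore rested on the lowest-scoring peak of that list.

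The PML-RARa peak scored 1614 and ranked 92 among 1772, and by width it ranked 75. The MLL-AF9 peak scored 1648 and ranked 25 among 1408, although 921 peaks of that list were at least as wide. In NT cells the first peak scored 1443 and ranked 60 among 1332, and the second scored 1694 and ranked 10. Each list thus had a peak of the window among its best 5.2% by score (1.78% in MLL-AF9, 1.29% in HOXA9, 5.19% in PML-RARa and 0.751% in NT cells). The scores are the authors' own values on an unstated scale. They and their ranks describe each list by itself and show no change between lists, which differ in length. In HOXA9 the top-ranked peak of the window was the left one, toward Wnt10b, and in NT cells the right one, toward Wnt1.

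**Figure D3:**
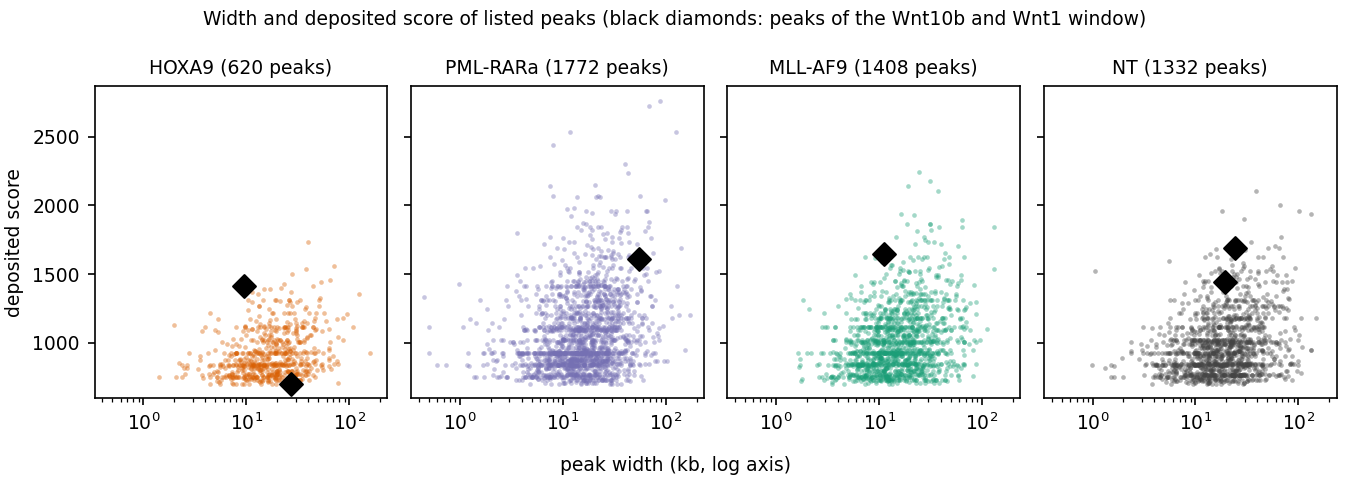
Deposited score against width in kb (log axis) of every listed peak, one panel per library, with the peaks of the window as black diamonds. In HOXA9 one diamond is near the top of the list (score 1418, 9.46 kb wide) and the other at its bottom edge (score 700, 27.1 kb wide).

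The HOXA9 and NT lists each had a break between their listed peaks of the window, whereas the PML-RARa list had 1 continuous peak. Each break was short enough that joining listed peaks within 5 kb left 1 peak in HOXA9 and 1 in NT cells. The break measured 1.37 kb in HOXA9, at 98613112 to 98614478, against 3.55 kb in NT cells, at 98613662 to 98617206. Both breaks shared 817 bp, at 98613662 to 98614478. The MLL-AF9 peak and the PML-RARa peak both ran across those 817 bp. The PML-RARa peak spanned the whole of both breaks. The MLL-AF9 peak spanned the whole HOXA9 break but ended at 98615251, inside the NT break.

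Short breaks were a small part of all spaces between neighbouring listed peaks. Spaces of at most 5 kb made up 22 of 600 on the same chromosome in HOXA9 (3.67%), 6.12% of those in MLL-AF9 and 8.16% in PML-RARa, against 112 of 1312 in NT cells (8.54%). No 2 peaks of a list lay closer than 0.802 kb, so an interruption shorter than that appears in no list. Among the 309 regions of all 4 lists, more than 1 peak was found in 4.53% for HOXA9, in 9.06% for PML-RARa and in 9.39% for MLL-AF9, against 8.74% for NT. The combination seen at Wnt10b and Wnt1, with more than 1 peak in HOXA9 and in NT and a single peak in MLL-AF9 and in PML-RARa, was found in 4 regions (1.29%), the present one included. Of all 1772 PML-RARa peaks, 0.903% spanned more than 1 HOXA9 peak, 2.14% more than 1 MLL-AF9 peak and 2.31% more than 1 NT peak. Only 7 (0.395%) spanned several peaks of both HOXA9 and NT, as the peak at Wnt10b and Wnt1 did.

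Across the 309 regions, the MLL-AF9 ratio at Wnt10b and Wnt1 was among the lowest. A ratio of 0.254 or less was found in 6 regions, this one included, against a median ratio of 0.936 (quartiles 0.705 and 1.12). MLL-AF9 covered at most 0.5 of the NT length in 38 of the 309 regions (12.3%, exact 95% interval 8.85 to 16.5). HOXA9 did so in 14.9% and PML-RARa in 5.5%. At this locus PML-RARa did not, and HOXA9 did not with all its listed peaks but did without its lowest-scoring one (0.216). These intervals cover counting error only and treat regions as independent. Regions that lacked a listed peak in any of the 4 lists were left out. Complete losses are therefore not counted in these shares, medians and ranks.

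The HOXA9 ratio of 0.835 had 129 of the 309 regions, this one included, at or below it, with a median of 0.913, but it depended on the peak with the score of 700, without which it was 0.216; HOXA9 covered more than NT in 35.3% of them. The PML-RARa ratio of 1.25 was reached or exceeded in 82 regions, this one included (median 1.02), and the PML-RARa length was above the NT length in 53.7% of regions. The full order seen here, with PML-RARa above NT, NT above HOXA9 and HOXA9 above MLL-AF9, was found in 34 of the 309 regions (11%). All ratios share the single NT library. Of the 38 regions with an MLL-AF9 length of at most 0.5 of NT, 23 had a missing MLL-AF9 number inside or beside them (60.5%, exact 95% interval 43.4 to 76.0), against 37.6% of the other 271 regions (exact 95% interval 31.8 to 43.7). The part of missing numbers in the short MLL-AF9 coverage was not tested.

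**Figure D4:**
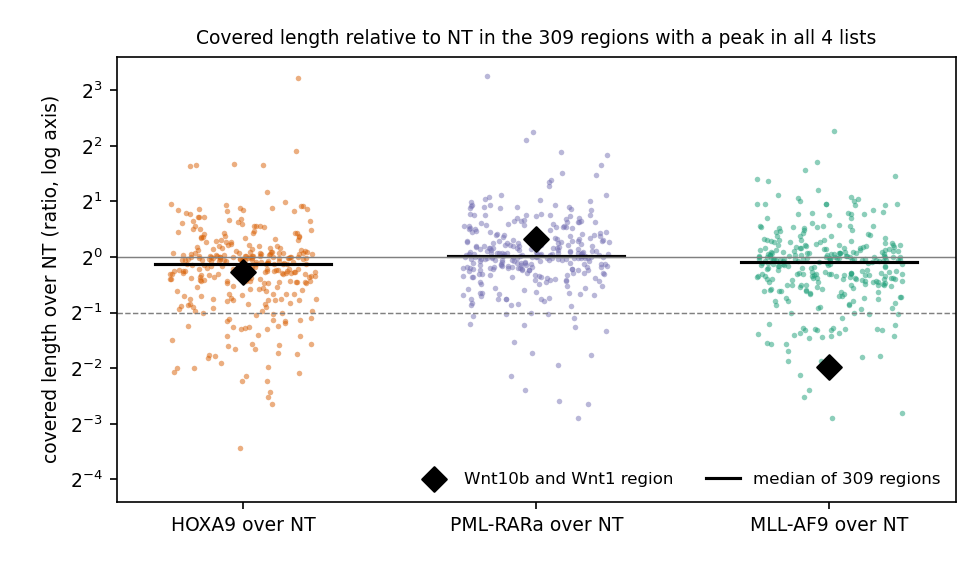
Covered length of each oncogene list over NT (log axis; solid grey line at 1, dashed at 0.5) for the 309 regions with a peak in all 4 lists, with the region of Wnt10b and Wnt1 as a black diamond and the median as a bar. The diamond is close to the median for HOXA9 (0.835 against 0.913; 0.216 without its lowest-scoring peak), above it for PML-RARa (1.25 against 1.02) and far below it for MLL-AF9 (0.254 against 0.936).

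The neighbouring regions with a peak in all 4 lists did not share this pattern. On the right, the region at 98721312 to 98736885 had a single peak in every list, of 12.8 kb in MLL-AF9, 13.2 kb in HOXA9 and 11.4 kb in PML-RARa, against 15.1 kb in NT cells. MLL-AF9 there had 0.847 of the NT length, and the left ends of all lists lay within 1.61 kb. On the left, the region at 98418095 to 98479477 also had a single peak in every list. It measured 34.7 kb in MLL-AF9, 27.0 kb in HOXA9 and 57.7 kb in PML-RARa, against 60.1 kb in NT cells. There HOXA9 was the shortest, with 0.449 of the NT length, and MLL-AF9 had 0.578. With all listed peaks, the 3 regions thus differed in which list was short. Without its peak with the score of 700, HOXA9 covered 9.46 kb at Wnt10b and Wnt1. It was then the shortest list there, as on the left. On the right the oncogene lists were close in length. No listed peak lay between the 3 regions outside the window in any list.

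**Figure D5:**
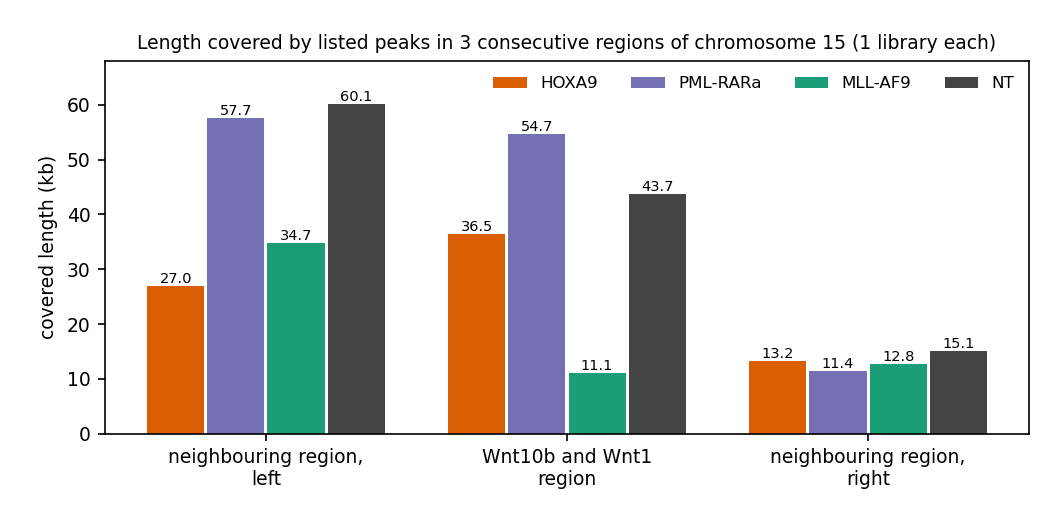
Length in kb covered by listed peaks in the region of Wnt10b and Wnt1 and in the nearest region on either side with a peak in all 4 lists, one bar per library (1 library each, so no error bars). MLL-AF9 has the shortest bar at Wnt10b and Wnt1 (11.1 kb), whereas HOXA9 has it on the left (27.0 kb) and PML-RARa on the right (11.4 kb). Without its lowest-scoring peak HOXA9 would be the shortest at Wnt10b and Wnt1, with 9.46 kb.

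The 3 regions most like Wnt10b and Wnt1 were found from the Euclidean distance between the covered shares of the merged region, over 4 libraries. At Wnt10b and Wnt1 these shares were 20.3% in MLL-AF9, 66.8% in HOXA9 and 100% in PML-RARa, against 80.0% in NT cells. The closest region, on chromosome 4 at 128779564 to 128822284, had shares of 24.7% in MLL-AF9, 64.7% in HOXA9 and 100% in PML-RARa, against 89.9% in NT cells (distance 0.110). The next, on chromosome 4 at 149388437 to 149433339, had 33.6% in MLL-AF9, 75.3% in HOXA9 and 96.1% in PML-RARa, against 82.5% in NT cells (distance 0.164). The third, on chromosome 7 at 25261877 to 25304591, had 28.4% in MLL-AF9, 57.6% in HOXA9 and 98.3% in PML-RARa, against 97.9% in NT cells (distance 0.218). In all 3 the PML-RARa list covered nearly the whole region and the MLL-AF9 list the least, which follows from choosing them by these shares. Each had 1 HOXA9 peak and 1 NT peak, without the break seen at Wnt10b and Wnt1. The HOXA9 peak scored 709 in the closest region, 844 in the second and 940 in the third. At Wnt10b and Wnt1 the wider HOXA9 peak had the lowest score of its list, 700. The likeness of the closest region in HOXA9 thus rested on low-scoring peaks. The next region by distance, on chromosome 13 at 99116987 to 99143581 (distance 0.227), did share the break. It had 2 peaks in HOXA9 and in NT, and 1 in PML-RARa and in MLL-AF9. Genes were not assigned to these regions.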

How the data were processed

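The authors called peaks separately in 4 libraries immunoprecipitated with an antibody against H2AK119Ub. Bowtie, MACS2 and the build mm9 are named, per the submitters' processing notes; neither versions, parameters nor the role of the input are stated. Each deposited list gives chromosome, start, end, name and a score per peak. The deposited score has no stated scale and was used only within its own list. Start and end were taken as BED coordinates, and printed starts count from 1. The lists held 620 (HOXA9), 1772 (PML-RARa), 1408 (MLL-AF9) and 1332 (NT) peaks; they hold no read counts, so depth is unknown. The labelled cell type could not be checked against marker genes without an mm9 annotation, and the planned count of other Wnt genes was not run. The input was not analysed here.

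Peaks of all lists were merged where they overlapped or touched, and covered lengths were compared per region. The members and all choices were made with earlier results of these data known. The text names, by a fixed rule, both genes, up to 5 neighbours on each side, every peak of the window, the nearest peaks outside and the 3 most like regions. Merging and covered lengths were tested on simulated data. Software was matplotlib 3.10.9, scipy 1.17.1, pandas 2.3.3 and numpy 2.4.6 under Python 3.11.15.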

Additional observations from a re-analysis of the deposited data

Results flagged for a closer look

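In the window PML-RARa covered more than NT, and MLL-AF9 and HOXA9 covered less. It differed from NT by -32.6 kb in MLL-AF9, by -7.22 kb in HOXA9 and by 11.0 kb in PML-RARa. Each value compares single libraries, and the difference between the oncogene libraries was not tested.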

How the results depend on the processing

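Of the values recomputed under other settings, 59 stayed within 1.5 times of their value (for shares, within their exact interval), and 12 did not. No ratio crossed 1. The 59 include values that could not change, so their number does not measure stability. Cutting a list by score leaves the rank of its best window peak as it was. No peak crossed the window border, the widened window held no further peak, and the best 620 HOXA9 peaks were its whole list. With the upper 75% or the upper 50% of each list by score, HOXA9 had 1 listed peak in the window, and its covered length over NT was 0.216, since its peak on the Wnt1 side had the lowest score of the list; leaving out that peak alone, a setting chosen after seeing the data, gave the same 0.216. HOXA9 then resembled MLL-AF9, whose ratio stayed 0.254. Joining listed peaks within 5 kb left 1 peak in HOXA9 and 1 in NT. Ranked by width instead of score, the best peak of the window stood at 920 in MLL-AF9, 155 in HOXA9 and 75 in PML-RARa, against 457 in NT. The share of regions in which PML-RARa covered at most 0.5 of the NT length was 9.34% with the upper 75% and 11.1% with the upper 50% by score. The causes of these shifts in rank and share were not tested. No paired analysis was possible because each group had 1 library and no result comes from a test.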
